A study of Mus musculus with 8 samples.

Results

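The Myc and Ptp4a3 neighbourhood is a run of genes on mouse chromosome 15 that reaches from Mrpl13 to Ptp4a3 and holds Myc near its middle. Its members were a named set of 41 genes, and a gene counted as measured where a probe set carried its symbol alone. That gave 40 of the 41 named genes, out of 19938 genes measured. Ptk2, a member by name, is not analysed here. Another 29 measured genes lie between the first and the last member and were kept apart from them. For each gene the probe set with the highest mean was used, and its value in each tumour was set against the median of the other 7 tumours. This difference, on the log2 scale, is called the deviation below. The members were chosen by their place around Myc and with these deviations in view, so the deviations are given as a description, with no test.

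Expression was measured with 1-colour arrays in 8 primary mouse osteosarcomas, malignant tumours of bone-forming cells, all on the C57Bl6 strain. The shRNA OS group held 4 tumours that carried the transgenic p53 hairpin P53.1224. Of these, replicate 1 (Rbfl/+), replicate 2 (Rb+/+) and replicate 3 (Rbfl/+) came from the tibia and replicate 4 (Rbfl/+) from the humerus. The Cre:lox OS group held 4 tumours with floxed p53 (P53fl/fl), a form of the gene that Cre recombinase can delete. Of these, replicate 1 (Rb+/+) came from the scapula, replicate 2 (Rbfl/+) from the humerus, and replicates 3 and 4 (both Rbfl/+) from the tibia. The series title calls the hairpin lineage restricted; the sources used here do not name the driver of the hairpin or of Cre, or the age or sex of the mice. All 8 tumours thus came from models aimed at p53, and no tumour or bone of another kind was among the samples.

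Myc is a transcription factor that dimerises with Max and drives growth and ribosome production. Pvt1 is a long noncoding RNA gene beside it that also hosts microRNAs, and Ptp4a3, also called PRL-3, is a phosphatase of the cell membrane that has been tied to metastasis. The matching region of human chromosome 8 is often gained in osteosarcoma, and genes within a gained or lost segment often shift in expression together. DNA was not measured in these samples, so nothing below says what the copy number was.

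Markers of bone-forming cells stood high among all genes. All 7 measured osteoblast lineage markers lay above the median level of all genes, from Dlx5, a homeobox factor that 85.4% of genes lay below, to Sparc, a bone matrix protein that 99.98% of genes lay below. Runx2, Bglap and Spp1 are not analysed here. Lying above that median does not set an identity, since 9 of 9 endothelial, 11 of 12 macrophage and 9 of 10 skeletal muscle markers did so too. Rb1, which Rbfl/+ tumours carry with a floxed allele, ranged from 9.10 to 9.71 log2 units in Rbfl/+ tumours, against 9.34 to 9.54 in Rb+/+ tumours, and so did not mark the genotype on these arrays. Trp53 is not analysed here. The array of shRNA OS replicate 2 was unlike the rest. Its mean correlation with the other 7 arrays was 0.941, against 0.961 to 0.968 for the others. Its interquartile range was 2.59, against 2.79 to 3.19, and its dimmest 25% of genes had a median deviation of 0.31. Of the 40 members 37 lay above the median level of all genes, and only Adcy8 was among the dimmest 25%. Values of this array alone are to be read with that in mind, and the comparisons between groups that it bears on most are given without it as well. In bulk tumour RNA, fewer cells of a type and less RNA per cell cannot be told apart.

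Most members deviated to the same side in some tumours, and to a different side in different tumours, while other tumours held members on both sides. Their median deviation was 0.18, 0.41, -0.01 and 0.64 in shRNA OS replicates 1 to 4, against -0.24, 0.23, -0.63 and -0.33 in Cre:lox OS replicates 1 to 4. Over all genes the same median stayed between -0.09 and 0.06 in every tumour. The members were furthest up in shRNA OS replicate 4 and furthest down in Cre:lox OS replicate 3, and they were up in the humerus tumours of both models. After the median deviation of genes of like level was taken off, the value for shRNA OS replicate 2 became 0.71, and the other 7 kept their sign. The highest value then stood in shRNA OS replicate 2, with shRNA OS replicate 4 at 0.61. Without that array as a comparator the median in shRNA OS replicate 3 was 0.22, so the near-zero value there has no settled sign.

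Counts of members are given next, tumour by tumour. In shRNA OS replicate 4, 23 of the 40 members lay more than 0.5 above the other tumours, where 6.02% of all genes did, and 8 lay more than 0.5 below, where 6.55% did. For shRNA OS replicate 2 the count above was 19, beside 12.6% of all genes, and the count below was 1, beside 16.6%. Both tumours therefore held many raised members, and replicate 4 alone of the pair held a block of lowered ones. For shRNA OS replicate 3 there were 11 members below, beside 3.91%, and 6 above, beside 6.68%; in shRNA OS replicate 1 there were 7 above, beside 7.14%, and 0 below, beside 4.01%. In Cre:lox OS replicate 3, 23 members lay more than 0.5 below, beside 8.35% of all genes, and 2 above, beside 9.28%. In Cre:lox OS replicate 4 it was 15 below, beside 6.53%, and 2 above, beside 10.2%. The Cre:lox OS tibia tumours thus had most of their shifted members below the rest. Cre:lox OS replicate 1 had 11 below, beside 2.77%, and 2 above, beside 5.53%, while Cre:lox OS replicate 2 had 12 above, beside 7.54%, and 4 below, beside 4.25%. Since the members were looked at by these values, nothing is read from the shares. Over the 8 tumours, 14 of the 40 members spanned more than 2 log2 units, where 6.01% of all genes did.

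**Figure D1:**
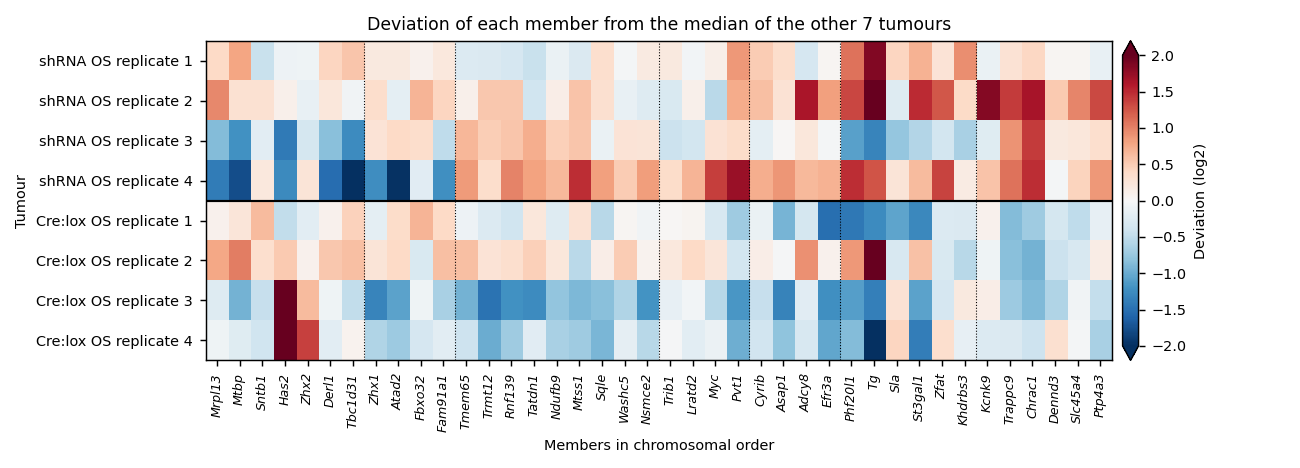
Deviation of the 40 measured members (columns, in chromosomal order) in each of the 8 tumours (rows), as log2 difference from the median of the other 7 tumours, red above and blue below, with colours saturated beyond 2 on either side. Dotted lines separate 7 stretches; in shRNA OS replicate 4 the members up to Fam91a1 are mostly blue and those after it mostly red.

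Neighbouring members often deviated to the same side. Of 39 adjacent pairs, the number with the same sign ran from 24 in Cre:lox OS replicate 1 to 33 in Cre:lox OS replicate 3. Such pairs are common in any gene order where most members lie to the same side. For description the members were split into 7 stretches of neighbouring members, chosen after their values were seen. Likeness within a stretch was therefore in part built in. The first stretch, Mrpl13 to Tbc1d31 with 7 members, had a median deviation of -1.39 in shRNA OS replicate 4 and -0.87 in shRNA OS replicate 3, against 0.39 and 0.23 in shRNA OS replicates 1 and 2. In the Cre:lox OS tumours its medians were 0.09, 0.54, -0.26 and -0.09. This stretch was the only one of the 7 that was low in shRNA OS replicates 3 and 4 together. Tbc1d31, a centrosomal protein, had 10.31, 9.75, 8.56 and 7.74 log2 units in shRNA OS replicates 1 to 4, against 10.21, 10.36, 9.32 and 9.82 in Cre:lox OS replicates 1 to 4. Mtbp, a protein that binds Mdm2 and takes part in starting DNA replication, had 9.16, 8.68, 7.40 and 6.84, against 8.62, 9.40, 7.68 and 8.37 in the same order. Both were lowest in shRNA OS replicate 4, and Mrpl13, a subunit of the mitochondrial ribosome, and Derl1, a channel protein of protein quality control in the endoplasmic reticulum, deviated there by -1.39 and -1.52. Sntb1, a scaffold of the dystrophin complex, did not share this and stayed between -0.47 and 0.63 in all 8 tumours.

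Has2 had the largest deviation of all members, and most of the genes around it did not share it. It encodes hyaluronan synthase, which spins the glycan hyaluronan into the pericellular matrix. Its level was 7.17, 7.27, 5.86 and 5.99 log2 units in shRNA OS replicates 1 to 4, against 6.77, 7.69, 9.45 and 10.71 in Cre:lox OS replicates 1 to 4. The Cre:lox OS tibia tumours, replicates 3 and 4, were high, at deviations of 2.28 and 3.54, and the other 6 tumours lay between 5.86 and 7.69. Its next neighbour Zhx2, a homeobox zinc-finger repressor, was also highest in Cre:lox OS replicates 4 and 3, over a smaller range, but it was not low in shRNA OS replicate 4. Zhx2 had 7.64, 7.58, 7.39 and 7.90 log2 units in the shRNA OS tumours, against 7.52, 7.73, 8.28 and 9.002 in the Cre:lox OS tumours.

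The second stretch, Zhx1 to Fam91a1, held 4 members and split the tumours differently. Its median deviation was 0.20, 0.40, 0.31 and -1.24 in shRNA OS replicates 1 to 4, against 0.38, 0.32, -0.86 and -0.47 in Cre:lox OS replicates 1 to 4, so that shRNA OS replicate 3 was no longer low. Atad2, a bromodomain ATPase of chromatin, had 9.93, 9.74, 10.14 and 7.96 log2 units in shRNA OS replicates 1 to 4, against 10.11, 10.13, 8.85 and 9.20 in Cre:lox OS replicates 1 to 4. Zhx1, a relative of Zhx2, deviated by -1.24 in shRNA OS replicate 4 and -1.32 in Cre:lox OS replicate 3, and Fam91a1, which captures vesicles at the Golgi, by -1.23 and -0.65. Fbxo32, a ubiquitin ligase subunit best known from wasting muscle, was the exception in shRNA OS replicate 4 at -0.23.

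The third stretch, Tmem65 to Nsmce2, held 9 members that shifted together in some tumours and not in others. All 9 lay above the median of the other 7 tumours in shRNA OS replicate 4, with a median deviation of 0.83, and all 9 lay more than 0.5 below that of the others in Cre:lox OS replicate 3, with a median of -0.95. All 9 were also below 0 in Cre:lox OS replicate 4, at a median of -0.64. In shRNA OS replicates 1, 2 and 3 the medians were -0.27, 0.14 and 0.49, with 2, 6 and 8 of the 9 above 0. In Cre:lox OS replicates 1 and 2 they were -0.10 and 0.27, with 3 and 8 above 0. The 9 genes have unlike roles. Mtss1, which bends membranes and binds actin, deviated most in shRNA OS replicate 4, at 1.47. In Cre:lox OS replicate 3 the tRNA-modifying enzyme Trmt12 deviated by -1.47, Tatdn1, a putative nuclease, by -1.26, Rnf139, a ubiquitin ligase of the endoplasmic reticulum, by -1.21 and Nsmce2, a SUMO ligase of DNA repair, by -1.19. The mitochondrial membrane protein Tmem65 reached -0.95 there, Ndufb9, a subunit of respiratory complex I, -0.79, and Washc5, of the endosomal WASH complex, -0.61. Sqle, squalene epoxidase of cholesterol synthesis, was the member of this stretch whose lowest value was in Cre:lox OS replicate 4, at a deviation of -0.91.

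The fourth stretch, Trib1 to Pvt1, contains Myc and had 4 members with medians of 0.15, -0.11, -0.04 and 1.03 in shRNA OS replicates 1 to 4, against -0.15, 0.22, -0.36 and -0.17 in Cre:lox OS replicates 1 to 4. The fifth, Cyrib to Efr3a, also of 4, had medians of 0.19, 0.72, -0.01 and 0.71 in shRNA OS, against -0.64, 0.11, -0.84 and -0.60 in Cre:lox OS. The largest single step along the members in shRNA OS replicate 2 lay between Myc and Pvt1, with a median deviation of 0.14 over the 23 members up to Myc and 1.24 over the 17 from Pvt1 on. Within the fifth stretch Efr3a, which anchors a lipid kinase at the plasma membrane, deviated by -1.51 in Cre:lox OS replicate 1, and Asap1, a GTPase-activating protein for Arf, by -1.34 in Cre:lox OS replicate 3. Cyrib, which binds Rac1 and restrains actin growth, deviated by at most 0.72, in shRNA OS replicate 4. Adcy8, a brain adenylyl cyclase and the dimmest member, reached 1.64 in the atypical array of shRNA OS replicate 2. Of the fourth stretch Trib1, a pseudokinase scaffold for protein breakdown, had no deviation beyond -0.43, in shRNA OS replicate 3, and Lratd2 none beyond 0.68, in shRNA OS replicate 4.

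The sixth stretch, Phf20l1 to Khdrbs3, had 6 members and the widest split between tumours. Its medians were 0.81, 1.29, -0.71 and 0.95 in shRNA OS replicates 1 to 4, against -1.16, 0.14, -0.71 and -0.51 in Cre:lox OS replicates 1 to 4. Tg, which encodes the thyroid hormone precursor thyroglobulin, had 9.20, 9.38, 7.30 and 8.62 log2 units in the shRNA OS tumours, against 7.35, 9.77, 7.25 and 6.42 in the Cre:lox OS tumours. Phf20l1, a reader of methylated lysine, and St3gal1, a sialyltransferase, deviated to the same side as Tg in all 8 tumours, with Phf20l1 between -1.43 and 1.47 and St3gal1 between -1.39 and 1.49. A second, dimmer Phf20l1 probe set differed from the first in Cre:lox OS replicate 2, at -0.70 in place of 0.86, and in Cre:lox OS replicate 4, at 0.18 in place of -0.86. The remaining members were less alike: Zfat, a zinc-finger factor, reached 1.35 in shRNA OS replicate 4, Sla, an adaptor of blood cells, -1.05 in Cre:lox OS replicate 1, and Khdrbs3, an RNA-binding splicing factor, 0.93 in shRNA OS replicate 1.

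The last stretch, Kcnk9 to Ptp4a3, had 6 members with medians of 0.04, 1.36, 0.29 and 0.72 in shRNA OS replicates 1 to 4, against -0.43, -0.38, -0.54 and -0.28 in Cre:lox OS replicates 1 to 4. It was the only stretch whose median was above 0 in all 4 shRNA OS tumours and below 0 in all 4 Cre:lox OS tumours, though with the median of genes of like level taken off the value in shRNA OS replicate 1 was -0.007. Chrac1, a histone-fold subunit of a chromatin remodelling complex, had 8.81, 10.05, 9.80 and 9.88 log2 units in the shRNA OS tumours, against 8.10, 7.88, 7.93 and 8.40 in the Cre:lox OS tumours. Trappc9, a subunit of a complex for vesicle traffic, had 8.88, 9.996, 9.50 and 9.69, against 8.01, 8.05, 8.16 and 8.60 in the same order. The groups did not overlap for either gene. Kcnk9, a potassium channel that is normally neuronal, had 6.24, 8.11, 6.14 and 6.86 log2 units in the shRNA OS tumours, against 6.38, 6.28, 6.42 and 6.10 in the Cre:lox OS tumours, so that its high value stood in the atypical array alone. Slc45a4 reached 0.98 in that array, while Dennd3, an activator of Rab12, stayed between -0.60 and 0.52.

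**Figure D2:**
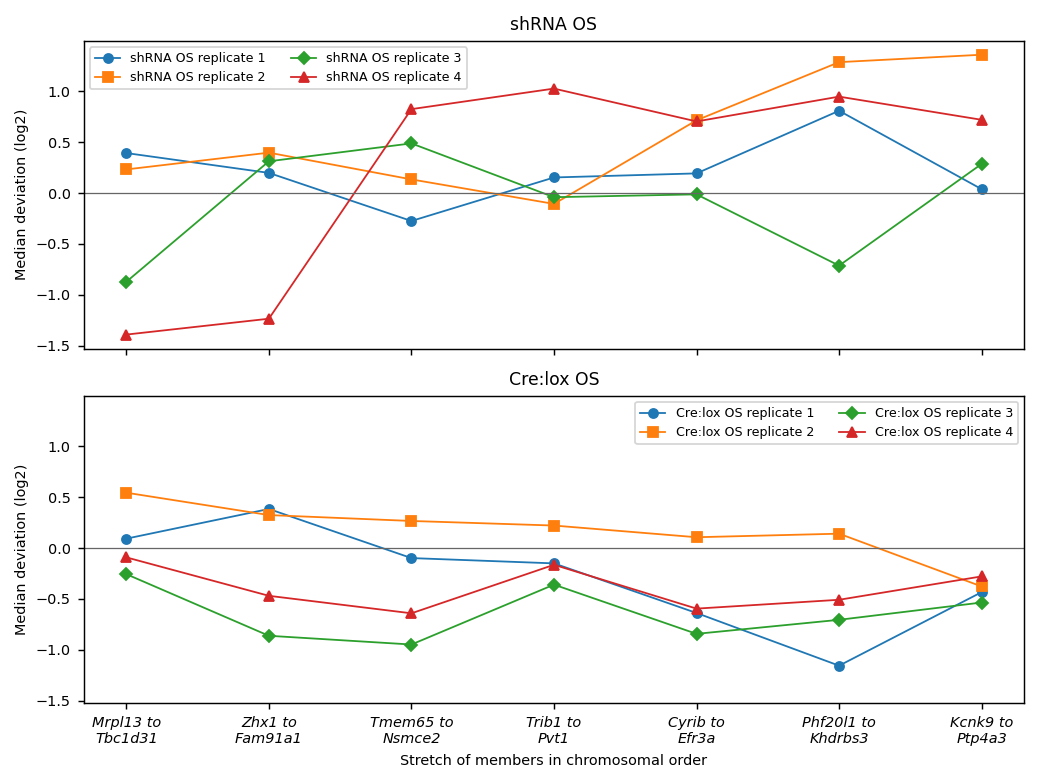
Median deviation (log2) of the members of each of 7 stretches, in chromosomal order on the horizontal axis, with a line for each tumour, shRNA OS above and Cre:lox OS below. The line of shRNA OS replicate 4 runs from -1.39 in the first stretch to 1.03 in the stretch that holds Myc, and that of shRNA OS replicate 2 reaches 1.36 in the last.

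The place of the largest step along the members differed between tumours. Every tumour has such a step by construction, at the cut where the medians on either side differ most, so its place is only a description. With at least 4 members on each side, the median of shRNA OS replicate 4 was -1.39 over the 9 members up to Atad2 and 0.72 over the 31 from Fbxo32 on. Fam91a1, at -1.23 there, lay past that cut. For shRNA OS replicate 3 it was -1.05 over the 4 members up to Has2 and 0.21 over the 36 from Zhx2 on. Members past this cut were low there too, with Derl1 at -0.84 and Tbc1d31 at -1.26. All 6 members from Phf20l1 to Khdrbs3 were also below 0 in that tumour, at a median of -0.71. Cre:lox OS replicate 1 had its step between Myc and Pvt1, as shRNA OS replicate 2 did, but downwards, with 0.04 before it and -0.70 after it. Cre:lox OS replicate 2 went down late, with 0.34 up to Zfat and -0.43 over the 7 members from Khdrbs3 on. The steps in the other tumours were smaller, at 0.36 upwards after Mtss1 in shRNA OS replicate 1, 0.58 downwards after Derl1 in Cre:lox OS replicate 3 and 0.32 downwards after Tbc1d31 in Cre:lox OS replicate 4. With level-adjusted deviations the place moved to after St3gal1 in Cre:lox OS replicate 2 and to after Tbc1d31 in Cre:lox OS replicate 3.

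Genes that were not on the list were set beside the members in the same way. The 7 unlisted genes between members that lay above the median level had median deviations of 0.16, 0.79, 0.34 and 0.77 in shRNA OS replicates 1 to 4, against -0.43, 0.15, -0.48 and -0.33 in Cre:lox OS replicates 1 to 4. All 29 unlisted genes, most of them dim, had medians of -0.04, 0.97, -0.01 and 0.21 in shRNA OS, against -0.06, -0.05, 0.04 and -0.29 in Cre:lox OS. The brighter 7 thus shared the sign of the members' median in 7 of the 8 tumours, shRNA OS replicate 3 being the exception, and all 29 did so in 5. Among the 20 measured genes before Mrpl13, the 9 above the median level had medians of 0.97, 0.25, -0.62 and -0.84 in shRNA OS, against -0.04, 0.38, -0.34 and -0.09 in Cre:lox OS. All 20 had medians of 0.39, 0.57, -0.32 and -0.45 in shRNA OS, against -0.01, 0.16, 0.01 and -0.25 in Cre:lox OS. They were low in shRNA OS replicates 3 and 4, as was the first stretch, and Taf2, a subunit of the general transcription factor TFIID, deviated by -1.04 and -1.37 there. The 20 genes after Ptp4a3 had medians of -0.01, 0.36, -0.05 and 0.04 in shRNA OS, against -0.01, -0.14, 0.10 and -0.14 in Cre:lox OS, with only 3 of them above the median level of all genes. All 748 measured genes of chromosome 15 together had medians between -0.11 and 0.14 in the 8 tumours.

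Myc followed its neighbours in 6 of the 8 tumours by sign. Its level was 10.95, 10.42, 11.12 and 12.22 log2 units in shRNA OS replicates 1 to 4, against 10.63, 11.07, 10.40 and 10.84 in Cre:lox OS replicates 1 to 4. shRNA OS replicate 4 was the highest of all 8, Cre:lox OS replicate 3 the lowest, and the groups overlapped. Its deviations were 0.12, -0.54, 0.28 and 1.38 in shRNA OS, against -0.32, 0.24, -0.56 and -0.12 in Cre:lox OS. The median of the other 39 members was 0.19, 0.44, -0.04 and 0.63 in shRNA OS, against -0.21, 0.23, -0.65 and -0.33 in Cre:lox OS. Myc lay within 0.21 of that median in shRNA OS replicate 1 and in all 4 Cre:lox OS tumours. It lay 0.75 above the median in shRNA OS replicate 4, where 35 of the 39 others were below it.

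The exceptions were shRNA OS replicates 2 and 3. In shRNA OS replicate 2 Myc was the lowest of all 40 members, 0.97 under the median of the others, while both Pvt1 and Ptp4a3 were up. After the median of genes of like level was taken off, Myc was at -0.37 there, with Pvt1 at 1.06 and Ptp4a3 at 1.49. Myc in shRNA OS replicate 3 was 0.32 above the median of the others and the median itself was near 0; without shRNA OS replicate 2 among the comparators that gap was 0.01. In Cre:lox OS replicate 2 Myc was 0.01 above the others' median, and it was 0.19 below without shRNA OS replicate 2 and 0.16 above without Cre:lox OS replicate 4.

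Pvt1 had 9.68, 9.56, 9.18 and 10.54 log2 units in shRNA OS replicates 1 to 4, against 8.48, 8.81, 8.02 and 8.20 in Cre:lox OS replicates 1 to 4. All 4 shRNA OS tumours were above all 4 Cre:lox OS tumours. Myc and Pvt1 deviated to the same side in 6 of the 8 tumours, the exceptions being shRNA OS replicate 2 and Cre:lox OS replicate 2. A second Pvt1 probe set was dim, with a mean of 3.66 log2 units, and its deviations, apart from 0.99 in shRNA OS replicate 2, stayed between -0.24 and 0.20. Ptp4a3 had 10.46, 11.78, 10.80 and 11.33 log2 units in the shRNA OS tumours, against 10.45, 10.61, 10.13 and 9.96 in the Cre:lox OS tumours. It was highest in shRNA OS replicate 2, where Myc was low, and the groups overlapped through shRNA OS replicate 1.

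**Figure D3:**
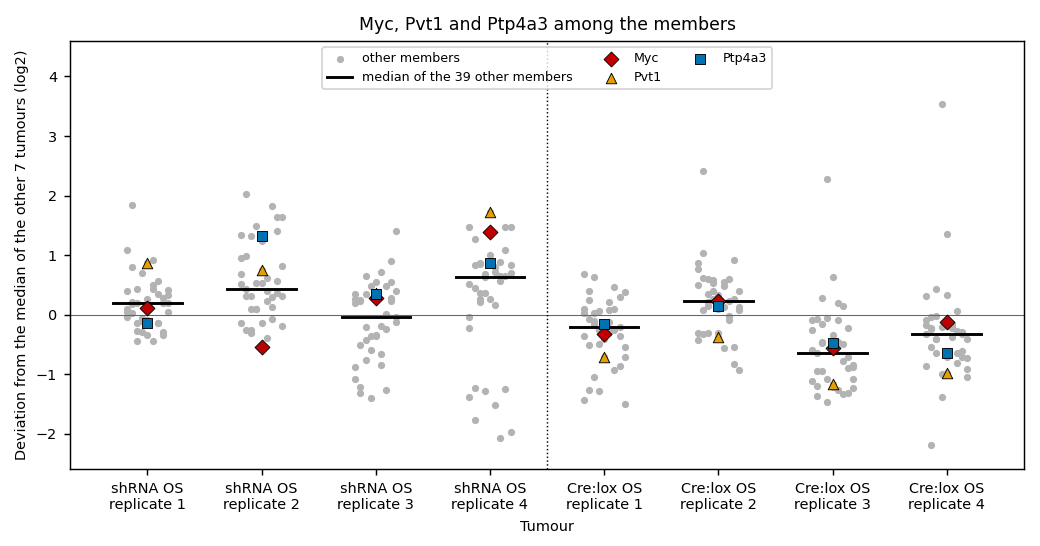
Deviation (log2) of every member in each tumour, with Myc (diamond), Pvt1 (triangle) and Ptp4a3 (square) marked and a bar at the median of the 39 members other than Myc. In shRNA OS replicate 4 Myc lies above 35 of the 39 others, and in shRNA OS replicate 2 it lies below all of them.

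Genes that Myc is known to act on did not order the tumours as Myc did. The Myc target list of 30 genes, mostly of ribosome production and the cell cycle, had a median deviation of 0.26, -0.23, -0.11 and -0.07 in shRNA OS replicates 1 to 4, against 0.04, 0.13, -0.03 and -0.08 in Cre:lox OS replicates 1 to 4. The highest Myc level, in shRNA OS replicate 4, thus stood beside a median of -0.07, and the highest median stood in shRNA OS replicate 1, where Myc deviated by 0.12. For shRNA OS replicate 2 the sign was not settled, since the median was 0.025 after genes of like level were taken off, and for Cre:lox OS replicate 2 it then came to -0.002. The 13 genes of the Myc dimer and antagonist network, Myc among them, had medians of 0.10, -0.20, -0.00 and 0.27 in shRNA OS, against 0.03, -0.02, -0.02 and -0.05 in Cre:lox OS. This median was highest in shRNA OS replicate 4, where Myc was highest, and lowest in shRNA OS replicate 2.

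Between the models the members had mostly higher means in shRNA OS, but none passed the test. limma, fitted over all 19938 genes with Benjamini-Hochberg adjustment, called 0 of the 40 members at an adjusted p under 0.05, where it called 0.0201% of all genes. The mean was higher in shRNA OS for 30 members and lower for 10, where 51.9% of all genes were higher, and the median difference over the members was 0.47 log2 units, against 0.01 over all genes. At an unadjusted p under 0.05 there were 14 members higher, beside 3.61% of all genes, and 1 lower, beside 6.02%. Without shRNA OS replicate 2 the count of members higher was 14 again, with a median difference of 0.45. The groups did not overlap for 5 members with higher values in shRNA OS, Pvt1, Asap1, Trappc9, Chrac1 and Slc45a4, where this held for 2.0% of all genes, and for 0 members with lower values, where it held for 3.44%. The margin was narrow for Asap1, with 11.62 as the lowest shRNA OS and 11.60 as the highest Cre:lox OS value, and for Slc45a4, with 9.61 and 9.57. Without shRNA OS replicate 2 the same 5 and Nsmce2 did not overlap with higher values, beside 4.13% of all genes, and 0 with lower, beside 4.24%. Since the members were gathered with these 8 tumours in view, the counts are a description. The p-values set each mean difference against the spread between these tumours alone.

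The members with lower means lay mostly at the Mrpl13 end. The 7 members of the first stretch were all lower by mean in shRNA OS (median difference -0.51), and those from Zhx1 to Fam91a1 were 2 higher and 2 lower. Single tumours bore on this: the first stretch had median deviations of -0.87 and -1.39 in shRNA OS replicates 3 and 4, but 0.39 and 0.23 in replicates 1 and 2. The signs of Sntb1 and Mrpl13 changed with the tumours left out. From Tmem65 on, 28 of 29 members had higher means, where 51.9% of all genes did, Trib1 being the exception. The borders of the stretches were set after these values were seen, so nothing is read from the counts.

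The 3 members of smallest p were Chrac1, Trappc9 and Pvt1. Chrac1 averaged 9.64 ± 0.56 log2 units in shRNA OS and 8.08 ± 0.24 in Cre:lox OS (SD, n = 4 each), a difference of 1.56 with a standard error of 0.26 and a limma adjusted p of 0.112. Trappc9 averaged 9.52 ± 0.47 in shRNA OS and 8.21 ± 0.27 in Cre:lox OS (SD, n = 4 each), a difference of 1.31 ± 0.24 (SE) at a limma adjusted p of 0.134. Pvt1 averaged 9.74 ± 0.58 in shRNA OS and 8.38 ± 0.35 in Cre:lox OS (SD, n = 4 each), a difference of 1.36 ± 0.29 (SE) at a limma adjusted p of 0.184. None of the 3 passed, and this depended on which tumours and covariates entered. Without shRNA OS replicate 1, whose Chrac1 and Trappc9 were the lowest of its group, both passed, with differences of 1.83 (limma adjusted p = 0.031) and 1.52 (limma adjusted p = 0.0361). With tibia or other site as a covariate Pvt1 passed instead, at 1.55 (limma adjusted p = 0.0371). With the mean of its probe sets, the dim one included, the Pvt1 difference was 0.84.

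Myc itself averaged 11.18 ± 0.76 log2 units in shRNA OS and 10.74 ± 0.29 in Cre:lox OS (SD, n = 4 each), a difference of 0.44 ± 0.34 (SE) at a limma adjusted p of 0.755. This value rested on single tumours, being 0.10 without shRNA OS replicate 4 and 0.70 without shRNA OS replicate 2. Ptp4a3 averaged 11.10 ± 0.58 in shRNA OS and 10.29 ± 0.30 in Cre:lox OS (SD, n = 4 each), a difference of 0.81 ± 0.28 (SE) at a limma adjusted p of 0.394, and 0.58 without shRNA OS replicate 2. In the lower direction the smallest p was that of Has2, at 6.57 ± 0.75 in shRNA OS and 8.65 ± 1.76 in Cre:lox OS (SD, n = 4 each), a difference of -2.08 ± 0.77 (SE) at a limma adjusted p of 0.418. Zhx2 followed with a difference of -0.51 and Tbc1d31 with -0.84, at limma adjusted p of 0.648 and 0.661. The Zhx2 difference was -0.22 without Cre:lox OS replicate 4, and that of Tbc1d31 was -0.39 without shRNA OS replicate 4. For Has2 and Zhx2 the high values were those of the Cre:lox OS tibia tumours, and for Tbc1d31 the low values were those of shRNA OS replicates 3 and 4.

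**Figure D4:**
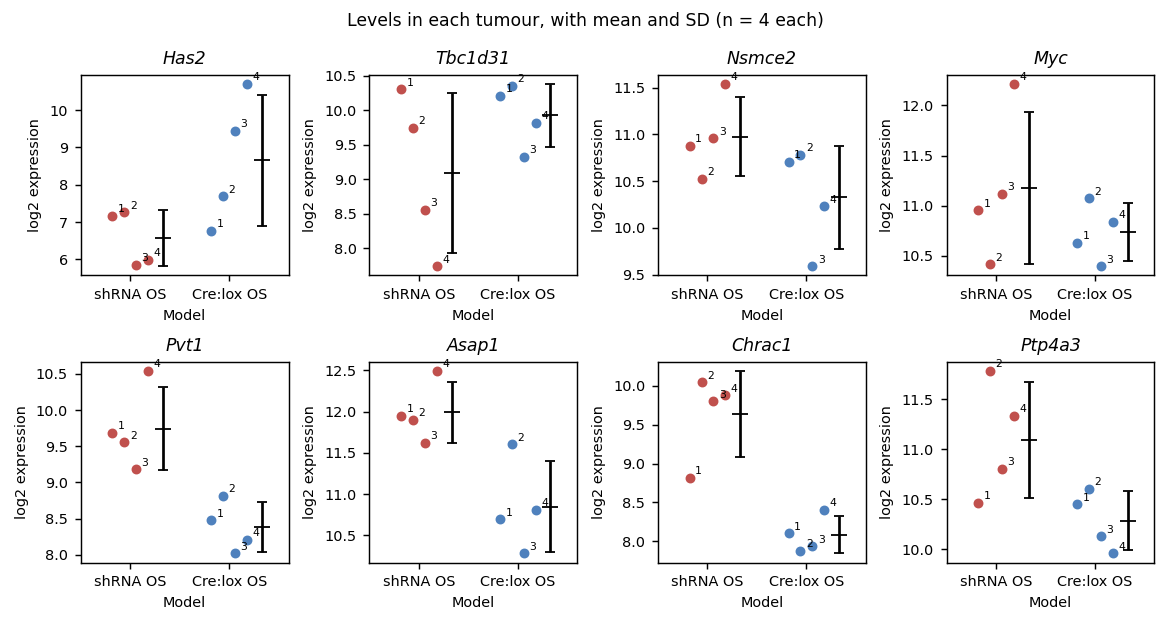
Log2 expression of 8 members in each tumour, numbered by replicate, with shRNA OS left of Cre:lox OS and the mean and SD of each group (n = 4) beside the points; the vertical axes differ and do not start at 0. The groups do not overlap for Pvt1, Chrac1 and, by a narrow margin, Asap1, and they overlap for the other 5 genes.

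Each role group but the last held members on both sides. Of the 9 mitochondrial and metabolic members 7 had higher means in shRNA OS, among them the glycosylation enzyme St3gal1 at 1.05 (0.69 with the mean of its probe sets) and Sqle at 0.81, and 2, Has2 and Mrpl13, had lower ones. Of the 10 members of cytoskeleton, membrane traffic and adhesion signalling 8 were higher, with Trappc9, Efr3a at 1.28 and Asap1 at 1.14 at the top, and Sntb1 and Fam91a1 were lower. Of the 9 members of gene regulation and chromatin 7 were higher and 2, Zhx2 and Atad2, were lower. The 3 members of cell division and genome upkeep divided by position, with Nsmce2 at 0.65 and Mtbp and Tbc1d31, of the first stretch, at -0.49 and -0.84. The 4 members of protein turnover divided evenly, with Rnf139 at 0.77 and Fbxo32 at 0.19 but Derl1 at -0.51 and Trib1 at -0.06. The 5 tissue-restricted or little-studied members all had higher means, from 0.04 for Lratd2 to 0.93 for Tg.

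Other genes of the Myc network differed in both directions between the models, and none passed the test. Of the 13 genes of the Myc dimer and antagonist network, Myc included, 10 had higher means in shRNA OS and 3 lower, with a median difference of 0.11, and 0 passed the limma threshold, with 1 higher and 2 lower at an unadjusted p under 0.05, beside 3.61% and 6.02% of all genes. Those 3 were the Max-binding repressors Mxd4, at 10.71 in shRNA OS and 10.07 in Cre:lox OS, and Mxd3, at 7.45 in shRNA OS and 7.90 in Cre:lox OS, and the Max-like partner Mlx, at 9.45 in shRNA OS and 9.87 in Cre:lox OS. The differences of Mycn (-0.11), Mycl (0.11), Max (0.10), Mxd1 (0.17), Mxi1 (0.13), Mnt (0.16), Mga (0.08), Mlxip (0.24) and Mlxipl (0.02) were each at most 0.24 log2 units. Of the 30 Myc target genes 14 were higher and 16 lower, with a median of -0.01, and 0 passed the limma threshold, with 2 higher and 0 lower at an unadjusted p under 0.05. The smallest p among those higher were of the cyclin Ccnd2, at a difference of 1.596 (limma adjusted p = 0.276), and the nucleolar methyltransferase Fbl, at 0.64 (limma adjusted p = 0.294); among those lower they were of Nop58, of the same nucleolar complex, at -0.48, and the cap-binding factor Eif4e, at -0.33.

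Markers of other cells also differed in mean between the models, and their part in the members' differences was not tested. All 12 macrophage markers were lower by mean in shRNA OS (median difference -0.77), led by Itgam at -1.03 and Lyz2 at -1.03; the list's mean level ranged from 9.01 to 10.66 log2 units in shRNA OS tumours, against 9.64 to 10.94 in Cre:lox OS tumours. All 10 skeletal muscle markers were lower as well, with a median of -0.68, Myl1 at -1.82 and Actn3 at -1.10, and mean levels of 7.31 to 10.92 in shRNA OS, against 7.94 to 10.47 in Cre:lox OS. The ranges overlapped in both cases. Of 17 cell division genes 15 were lower, with a median of -0.39, Mcm3 at -0.78 and Tyms at -0.72. The other lists had medians close to that of all genes: 0.13 over 7 osteoblast lineage markers, with Dlx5 at 1.2 and Sp7 at 0.54, 0.17 over 9 endothelial markers, with Tek at 1.01 and Vwf at -0.32, 0.05 over 5 erythroid markers, with Car1 at 0.81 and Alas2 at -0.20, 0.09 over 6 B cell markers, with Ebf1 at 0.89 and Cd79b at 0.26, and 0.02 over 8 T and NK cell markers, with Il7r at -0.45 and Cd4 at 0.26. None of these genes passed the adjusted threshold.

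By anatomical site all members of the stretch from Tmem65 to Nsmce2 were lower by mean in the tibia, again without a call after adjustment. With model as a covariate, limma called 0 of the 40 members at an adjusted p under 0.05 between the 5 tibia tumours and the 3 of humerus and scapula, where it called 0.0% of all genes. At an unadjusted p under 0.05 there were 14 members lower in the tibia, beside 3.33% of all genes, and 1 higher, beside 2.32%. By mean alone 15 members were higher in the tibia, where 44.5% of all genes were, and the median difference was -0.32. All 9 members of Tmem65 to Nsmce2 were among the 14, together with Sntb1, Lratd2, Myc, Pvt1 and Asap1. The borders of that stretch were set after the values of these tumours were seen, so nothing is read from its full count. The sites overlapped for every member of the stretch. In shRNA OS replicate 3, a tibia tumour, 8 of the 9 lay above 0, at a median deviation of 0.49. The smallest p was that of Nsmce2, with 9.59 to 10.96 log2 units (median 10.52) in the tibia and 10.70 to 11.54 (median 10.78) at the other sites, a difference of -0.80 ± 0.19 (SE) at a limma adjusted p of 0.647. Myc ranged from 10.40 to 11.12 (median 10.84) in the tibia and from 10.63 to 12.22 (median 11.07) at the other sites, a difference of -0.73 ± 0.29 (SE) at a limma adjusted p of 0.831. The member that was higher in the tibia was Has2, by 1.96 ± 0.54 (SE) at a limma adjusted p of 0.691. The sites overlapped for each of these 3 genes. The count of 14 rested on single tumours of the Cre:lox OS group, being 7 without replicate 2 and 8 without replicate 3, and it was 16 without shRNA OS replicate 2. The macrophage markers ran along with site, since the median of the 12 was 1.19 higher in the tibia, with mean levels of 9.45 to 10.94 log2 units in the tibia and 9.01 to 10.01 at the other sites. The 7 osteoblast lineage markers were all lower by mean in the tibia (median difference -0.34), with mean levels of 11.87 to 12.55 in the tibia and 12.45 to 12.62 at the other sites. The 10 skeletal muscle markers were all higher (median difference 0.65), with mean levels of 7.31 to 10.92 in the tibia and 7.94 to 10.42 at the other sites. The part of these in the members' difference was not tested.

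**Figure D5:**
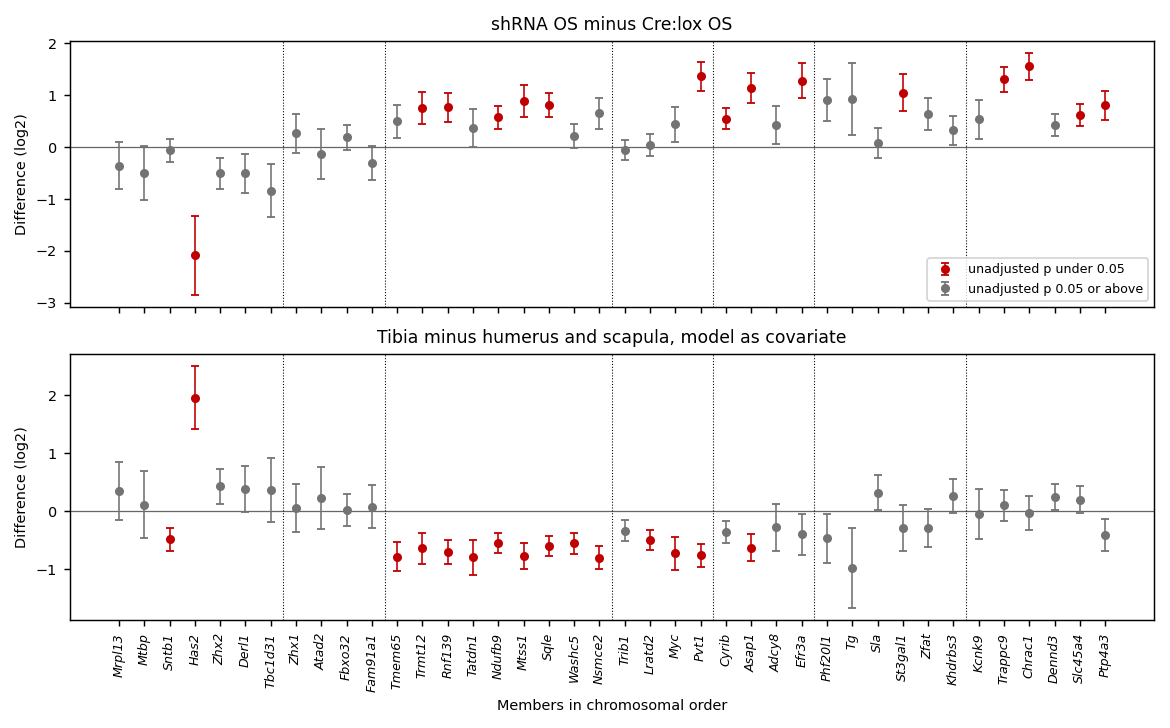
Differences of the 40 members in chromosomal order with their standard errors (log2), between shRNA OS and Cre:lox OS (top) and between tibia and other sites with model as a covariate (bottom), red where the unadjusted p was under 0.05. The run from Tmem65 to Nsmce2 lies above 0 in the upper panel and below 0 in the lower; no point passed after adjustment.

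By Rb genotype no member passed after adjustment, with only 2 Rb+/+ tumours in the comparison. The members' differences ran from -0.91 for Kcnk9 to 0.79 log2 units for Has2. Myc differed by 0.58 ± 0.36 (SE), and by 0.14 without shRNA OS replicate 2. With model as a covariate, limma called 0 of the 40 members at an adjusted p under 0.05 between the 6 Rbfl/+ and the 2 Rb+/+ tumours, where it called 0.0% of all genes. By mean 16 members were higher in Rbfl/+ tumours, where 47.0% of all genes were, and the members' median difference was -0.19 log2 units. This median rested on the Rb+/+ tumours: leaving out that of shRNA OS gave -0.03, and leaving out that of Cre:lox OS gave -0.42. At an unadjusted p under 0.05, 3 members were lower in Rbfl/+ tumours, beside 1.64% of all genes, and 0 higher, beside 3.09%. The 3 were Fbxo32, Kcnk9 and Sntb1. Fbxo32 ranged from 8.36 to 8.94 log2 units (median 8.52) in Rbfl/+ tumours, against 9.27 in both Rb+/+ tumours, a difference of -0.70 ± 0.18 (SE) at a limma adjusted p of 0.836. All 6 Rbfl/+ tumours were below the Rb+/+ pair, but the share of all genes split in this way was not counted, so nothing is read from it. Kcnk9 ranged from 6.11 to 6.86 in Rbfl/+ tumours, against 6.38 and 8.11 in Rb+/+ tumours, a difference of -0.91, with the high value in the atypical array and a difference of -0.11 without it. Sntb1 ranged from 7.55 to 8.15 in Rbfl/+ tumours, against 8.12 and 8.45 in Rb+/+ tumours, a difference of -0.50. Without shRNA OS replicate 2, which leaves 1 Rb+/+ tumour, the members lower at an unadjusted p under 0.05 came to 1, Fbxo32, beside 1.83% of all genes, and those higher to 2, Has2 and Sla, beside 0.948%. A fit of whether the Rb or the site difference varied between the models was run, but nothing is read from it. It could not decide this, since each model had 1 Rb+/+ tumour and shRNA OS had 1 tumour outside the tibia.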

How the data were processed

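Per the labels' protocols, RNA came from tumours lysed in Trizol and was cleaned up with an RNeasy kit. The authors deposited log2 values normalized by RMA; RMA (robust multi-array averaging) and the genome build mm9 are named per the submitters' processing notes, and the RMA version is not given in the sources used here. Each array held 35556 probe sets, of which 21789 carry 1 gene symbol, 1621 several and 12146 none in the platform table; the probe set of highest mean gave 19938 genes. Intensities before RMA were not used, so probes near background could not be told from those above it, and the number of arrays limits the precision. Gene order came from a RefSeq table of GRCm38.p6, another build than mm9, so no coordinates are given.

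From these values, deviations were computed with Python 3.11.15, pandas 2.3.3 and numpy 2.4.6, and differences were tested with limma 3.58.1 in R 4.3.3 (lmFit and eBayes, Benjamini-Hochberg adjustment over all genes, threshold 0.05), two-sided. The fit was tested on simulated data. The model comparison had no covariate; the Rb and site comparisons had model as a covariate. Level-adjusted deviations subtract the median of all genes in the same of 20 bins of mean level. The members and the gene lists (osteoblast lineage, Myc dimer and antagonist network, Myc target, cell division, macrophage, skeletal muscle, endothelial, erythroid, B cell, T and NK cell) were chosen with earlier results of these data known. Named with values in all 8 tumours were Myc, Pvt1, Ptp4a3, the 8 members with the largest deviation in any tumour and the 3 of smallest p in each direction between the models; others are named by role. Alternatives were quantile normalization, median centring, the mean of a gene's probe sets, a filter at the 25th percentile of level, trend and robust eBayes, Rb genotype or site as a covariate, the mean in place of the median of the other 7 tumours, and leaving out each tumour.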

Additional observations from a re-analysis of the deposited data

Results flagged for a closer look

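Within each model, each member, and the median deviations of the members and of the Myc target list, were checked for a tumour set apart from the other 3 of its group by more than Dixon's 95% critical value. Of 84 such checks 2 stood out, beside 4.2 expected by chance. The members were chosen with these values in view and neighbours often shifted together, so nothing is read from that count. Zhx1 in shRNA OS replicate 4 was at 9.91 log2 units, below the other 3 shRNA OS tumours at 11.15 to 11.31. Adcy8, the dimmest member, was at 6.69 log2 units in Cre:lox OS replicate 2, above the other 3 Cre:lox OS tumours at 5.65 to 5.78.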

How the results depend on the processing

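No paired analysis was possible because the replicate numbers follow the order of the samples and pair no tumours across the models. Of the values that answer a comparison, 439 kept their direction and their side of the threshold or stayed within the replicate spread, 13 moved and 2 reversed; for single genes 549 did so, 3 came to pass the threshold and 17 reversed. With site as a covariate 1 member passed between the models, Pvt1 at 1.55; leaving out each tumour gave 0 to 2 members. In that fit the small differences of Sntb1, Trib1 and Sla turned to 0.061, 0.028 and -0.001. Leaving out each tumour gave -0.19 to 0.11 for Sntb1, -0.19 to 0.069 for Trib1, -0.17 to 0.26 for Sla, -0.74 to 0.017 for Mrpl13, -0.37 to 0.36 for Atad2 and -0.14 to 0.19 for Lratd2, so none of these has a settled sign. The count of members lower in Rbfl/+ tumours at an unadjusted p under 0.05 was 1 without shRNA OS replicate 2. The count of members lower in the tibia at an unadjusted p under 0.05 ran from 7 to 16. Level adjustment set the members' median in shRNA OS replicate 2 to 0.71, and it set the Myc target median to 0.025 in shRNA OS replicate 2 and -0.002 in Cre:lox OS replicate 2. Quantile normalization gave a Myc target median of -0.17 in Cre:lox OS replicate 4. Myc minus its neighbours ran from -0.26 to -0.066 in Cre:lox OS replicate 1, from -0.19 to 0.16 in replicate 2 and from 0.12 to 0.41 in replicate 4 as tumours were left out. The causes were not tested. Signal over background was not used here, so the low values of Adcy8 and of the second Pvt1 probe set say nothing of whether these genes were expressed.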
